A study of Mus musculus with 26 samples.

Results

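The transcripts described here encode the activation steps of rod phototransduction and its arrest. They are the 3 subunits of rod transducin (Gnat1, Gnb1 and Gngt1), the 3 subunits of rod cGMP phosphodiesterase (Pde6a, Pde6b and Pde6g), the 2 subunits of the rod cGMP-gated channel (Cnga1 and Cngb1) and rod arrestin (Sag). These 9 genes were taken by symbol from the 37991 genes counted, and each of the 9 matched 1 Ensembl identifier. RNA was sequenced from 22 whole retinas of rd10 mice and from 4 preparations of rods sorted from rd10 mice, in 5 experiments that each had their own controls. Mice received intraperitoneal injections of an inhibitor of a chromatin enzyme or of saline or diluent from PN9 to PN24. Retinas and rods were collected at PN24. The comparisons ask whether retinas and rods of treated rd10 mice held more or less of these transcripts than those of controls.

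DZNep (4 control and 2 treated retinas) and UNC1999 (3 and 3) inhibit EZH2, which methylates histone H3 at K27. UNC0642 (2 and 2) inhibits the G9A/GLP complex, which methylates H3 at K9. Romidepsin (3 and 3) inhibits histone deacetylases, and GSK2879552 (2 control and 2 treated rod preparations) inhibits the demethylase LSD1. All mice, controls included, carried the rd10 allele of Pde6b, a missense mutation in a gene of the cascade itself, and mice of both sexes were used. Retinas came from the strain labelled B6.CXB1-Pde6brd10/Jrd10. Sorted rods came from rd10 mice crossed to B6.Cg-Tg(Nrl-EGFP)1Asw/J, in which the Nrl promoter drives EGFP in rods. The labels give daily injections for all mice, whereas the study's text gives DZNep on alternate days in the later part of the course. UNC1999 was diluted in DMSO, PEG300, Tween-80 and saline, and the study's text gives saline for its controls in 1 place and only the diluent in another. If they received saline, the inhibitor and its diluent cannot be told apart. No source used here says whether a library came from 1 retina or from pooled retinas.

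In a rod, light activates the visual pigment, which makes the transducin alpha subunit exchange GDP for GTP and leave the beta and gamma subunits. The active alpha subunit removes the inhibitory gamma subunits from the phosphodiesterase, cGMP is hydrolysed, the cGMP-gated channels close and the cell hyperpolarizes. Arrestin then binds the phosphorylated pigment and ends its signalling. Loss of phosphodiesterase function lets cGMP accumulate, and mutations in either catalytic subunit cause rod degeneration.

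The members lie on 8 chromosomes in NCBIM37, the build of the files. Gnat1 lies at chr9:107576808-107581923, Gnb1 at chr4:154865470-154933378, Gngt1 at chr6:3943797-3947436 and Pde6a at chr18:61380136-61449578. Pde6b lies at chr5:108817410-108861416, Pde6g at chr11:120308919-120314814, Cnga1 at chr5:72994935-73033991, Cngb1 at chr8:97762945-97808081 and Sag at chr1:89700255-89741733. No other annotated gene shared an exon base with any of them.

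Depth was 13732959 to 36354094 counted reads per retina and 7289460 to 19864491 per preparation of sorted rods. In 23 pairs of replicates the chi-square statistic was at least 3.72 per gene, so that none was a copy of another. Retinas expressed the markers of rods, cones, Müller glia, bipolar cells and microglia. In the control rods, 6 of 10 markers of the retinal pigment epithelium were at 0, among them Rpe65 and Ttr. The summed level of 10 Müller glia markers was 342 to 535 CPM (counts relative to the TMM-scaled library size) in control rods, against 6250.5 to 12093 CPM in control retinas. Bipolar cell genes, 10 in number, were less depleted, at 1019 to 1290 CPM in control rods against 1779 to 2527 CPM in control retinas. The 10 genes of the cone cascade together reached 3099 to 4659 CPM in the control rods, against 1635 to 2980.2 CPM in control retinas. Both UNC0642 controls stood apart from the other control retinas, with a summed member level of 5235 and 5483 CPM against 8783 to 17824 CPM.

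Promoter windows of 6 members were found in RefSeq (GRCm38.p6), each running from 250 bases before the start site to 50 bases after it. They are those of Gnb1, Gngt1, Pde6b, Cnga1, Cngb1 and Sag. 2 motifs were searched on both strands: TAATCC, the core bound by the photoreceptor homeodomain factors CRX and OTX2, and TGCTGA, a core of the sites bound by NRL and related bZIP factors. Of the 6 windows, 4 held TAATCC and 2 held TGCTGA. Of all 32851 RefSeq windows of that length, 7.06% held TAATCC and 19.5% held TGCTGA. The windows of Pde6b, Cngb1, Sag and Gnb1 are shown, 5′ to 3′ on the gene's strand with any motif in capitals. They were chosen because Pde6b and Sag stood at opposite ends of the changes in DZNep and UNC1999 below. Cngb1 held the most copies of a motif, and Gnb1 is the member used most widely outside rods.
Pde6b: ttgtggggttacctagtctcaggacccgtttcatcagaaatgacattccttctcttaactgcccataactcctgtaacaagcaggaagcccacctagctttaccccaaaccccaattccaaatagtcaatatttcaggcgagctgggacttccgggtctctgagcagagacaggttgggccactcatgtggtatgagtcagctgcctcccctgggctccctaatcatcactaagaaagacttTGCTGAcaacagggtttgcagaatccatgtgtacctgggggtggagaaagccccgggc
Cngb1: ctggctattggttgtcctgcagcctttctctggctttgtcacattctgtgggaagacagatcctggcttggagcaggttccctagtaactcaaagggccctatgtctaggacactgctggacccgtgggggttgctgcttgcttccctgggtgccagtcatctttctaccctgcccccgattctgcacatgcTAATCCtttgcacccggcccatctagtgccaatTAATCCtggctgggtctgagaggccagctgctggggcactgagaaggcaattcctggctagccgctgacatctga
Sag: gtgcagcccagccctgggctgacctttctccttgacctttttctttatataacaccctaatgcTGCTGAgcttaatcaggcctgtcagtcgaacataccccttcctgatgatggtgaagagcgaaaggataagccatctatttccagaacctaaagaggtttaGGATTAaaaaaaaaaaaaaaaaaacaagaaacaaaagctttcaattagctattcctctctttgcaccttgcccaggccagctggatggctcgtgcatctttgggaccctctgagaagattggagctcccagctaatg
Gnb1: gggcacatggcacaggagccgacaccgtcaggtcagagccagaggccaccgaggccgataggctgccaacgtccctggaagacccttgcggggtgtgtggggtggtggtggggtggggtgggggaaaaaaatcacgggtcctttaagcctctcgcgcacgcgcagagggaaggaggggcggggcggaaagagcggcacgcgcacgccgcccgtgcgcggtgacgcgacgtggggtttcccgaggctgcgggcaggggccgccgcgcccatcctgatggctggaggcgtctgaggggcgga
The Pde6b window, chr5:108388123-108388422 (plus strand), held TGCTGA with its first base 8 bases before the start site. The Cngb1 window, chr8:95306536-95306835 (minus strand), held TAATCC with first bases 58 and 25 bases before the start. The Sag window, chr1:87803430-87803729 (plus strand), held TGCTGA at 187 bases before the start and TAATCC on the opposite strand, which reads GGATTA as printed, at 87 bases before it. The Gnb1 window, chr4:155491111-155491410 (plus strand), held neither and had a GC content of 70.3%, against 41.3% to 56.0% in the other 5. A match is a run of letters and not a shown binding site.

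Levels between genes were compared as CPM per kilobase of annotated exons. In the 12 control retinas Gnat1 stood highest, with a median of 1856 (658 to 3359), followed by Gnb1 with a median of 585 (281 to 910.4). Pde6g (median 284), Pde6a (251) and Sag (250.0) lay close together, and the range of each overlapped those of the others. Pde6b followed at a median of 131 and Gngt1 at 99.7, also with overlapping ranges. The channel was lowest, with medians of 63.4 for Cnga1 and 38.6 for Cngb1. Because the libraries differed as a whole, the ranges of all neighbours in this order overlapped. Within every library, treated ones included, Gnat1 was above Gnb1 and Gnb1 above Gngt1, and Cnga1 above Cngb1.

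The sorted control rods gave another order. Gnat1 was again highest at 5320.5 and 8864 CPM per kilobase and Cngb1 lowest at 51.2 and 59.8. Pde6b, however, was at 1229 and 1246, whereas Pde6a was at 139.7 and 183, within its range in control retinas (119 to 418). Pde6g was at 759 and 1232 in the same rods, so that by level Pde6a was the subunit of the phosphodiesterase that stood apart there. Set against control retinas, Pde6b was the subunit furthest above its median there (1237 in rods, 131 in retinas). Pde6g had medians of 996 and 284, and Pde6a was below its retinal median (161 and 251). The strain, the dissociation and sort, and the library kit (SMART-Seq for the rods, by the study's methods) all differed between the 2 kinds of sample and cannot be told apart, and no test was made. Lengths also matter: by the longest coding transcript in place of all exons, a choice made after the data were seen, the median of Sag in control retinas was 1294 and it stood second.

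**Figure D1:**
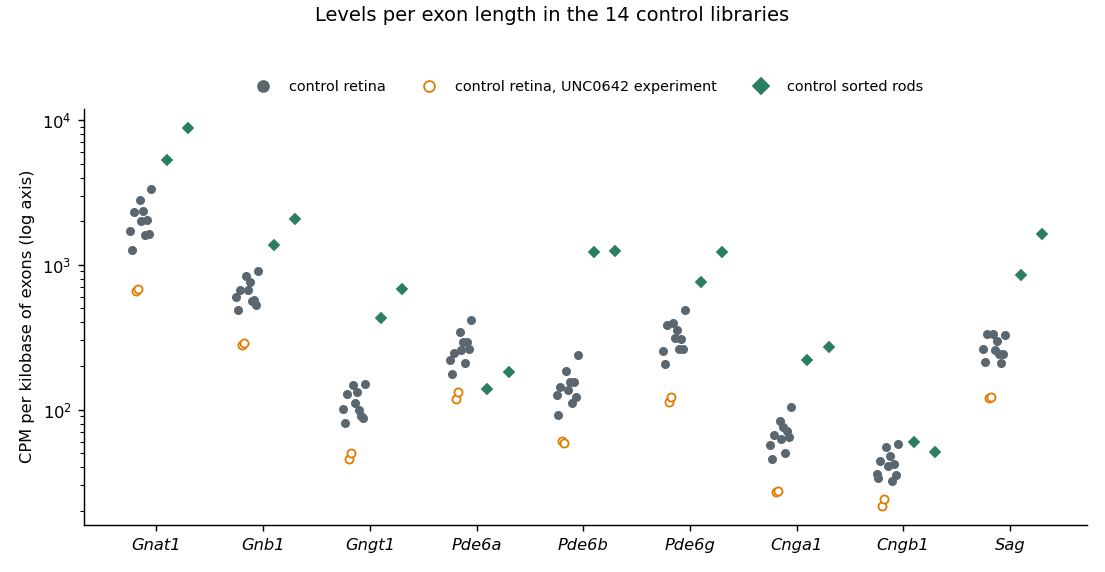
Level of each member in the 14 control libraries, as CPM per kilobase of annotated exons on a log axis. Each filled circle is a control retina, each open circle a control retina of the UNC0642 experiment and each diamond a preparation of sorted control rods. The UNC0642 controls are the lowest retinas for all 9 members, and Pde6a is the one member with both sorted preparations within the range of the retinas.

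All 9 members rose in the DZNep retinas. A gene was called where its adjusted p was under 0.05. With edgeR's quasi-likelihood test their adjusted p-values ran from 0.00119 to 0.0249, where 12.9% of the 16477 genes tested were called higher and 9.72% lower, and 36.5% had an unadjusted p under 0.05. For each of the 9, both treated retinas lay above all 4 controls, as 24.4% of all genes tested did. For 6 of them (Gnat1, Gnb1, Pde6a, Pde6b, Pde6g and Cnga1) the log2 fold change was also above 1, which held for 1.02% of genes. The median log2 fold change of the members was 1.05, against -0.00 over all genes tested. In whole retinas, fewer cells of a type and less RNA per cell cannot be told apart. In the same DZNep retinas 12 of 12 microglia markers had a log2 fold change below 0, 1 of them called lower, and their summed level was 198 to 217 CPM against 235 to 454 CPM in controls. The pigment epithelium markers went the other way, with 5 of 10 called higher and a summed level of 199.8 to 309.9 CPM against 59.6 to 165 CPM. The part of either in the members' levels was not tested.

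In the UNC1999 retinas the log2 fold changes were of like size (0.38 to 1.24, median 0.92 against -0.00 over all genes), but none of the 9 passed the threshold with edgeR's quasi-likelihood test. Adjusted p-values ran from 0.0538 to 0.234, and 0.501% of 15775 genes were called higher and 0.101% lower. At an unadjusted p under 0.05 there were 8 members, all but Sag, where 23.6% of genes passed. The same 8 had every treated retina above every control, as 13.9% of genes did, and the same 8 were called by the likelihood ratio test and by DESeq2. Control replicate 3 had the highest level of all 9 members among its group. Without it all 9 were called, but calls rose over all genes too. Of 16107 genes tested without it, 1338 were called higher and 1369 lower, against 79 and 16 with it. Microglia markers were below 0 for 12 of 12 genes (150.5 to 189.7 CPM summed, against 244 to 389 CPM). None of them was called with the quasi-likelihood test, while the likelihood ratio test and DESeq2 each called 11 lower. With the quasi-likelihood test 6 of 10 pigment epithelium markers were called higher (377 to 431 CPM against 109.9 to 135 CPM). The other 2 tests each called 8 of these. The part of either list in the members' levels was not tested.

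The other 3 treatments gave no call with edgeR's quasi-likelihood test. For UNC0642 the log2 fold changes ran from -0.00 to 0.48, 0% of 16321 genes were called in either direction, and 1 member, Pde6b, had an unadjusted p under 0.05, as 14.7% of genes did. DESeq2 called that 1 member and the likelihood ratio test called 0. For Romidepsin the log2 fold changes ran from 0.01 to 0.65 where 0.573% of 16049 genes were called higher, 0.405% with a log2 fold change above 1. 4 members (Pde6a, Pde6b, Cnga1 and Cngb1) had an unadjusted p under 0.05, as 19.4% of genes did, and DESeq2 and the likelihood ratio test each called 2, Pde6b and Cnga1. For GSK2879552 in sorted rods they ran from -0.57 to 0.31, 0% of 14478 genes were called, 0 members had an unadjusted p under 0.05 against 4.91% of genes, and DESeq2 and the likelihood ratio test called 0. Members whose treated libraries all lay above the controls numbered 2 for UNC0642 (26.9% of genes), 2 for Romidepsin (13.5%) and 1 for GSK2879552 (15.9%), where 0 members had both treated libraries below the controls (17.3%).

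**Figure D2:**
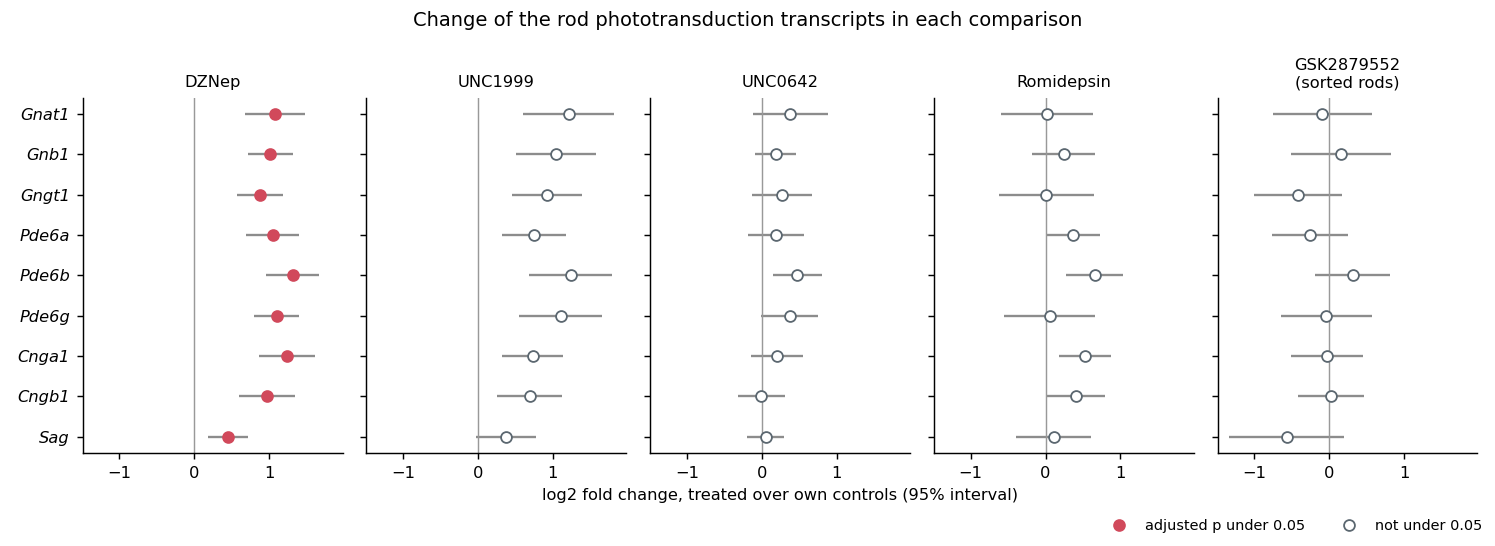
Log2 fold change of each member, treated over its own controls, in the 5 experiments, with the 95% interval of edgeR's quasi-likelihood fit as the bar. Filled points passed an adjusted p of 0.05, which 9 members did for DZNep and 0 did in the other 4 experiments. The UNC1999 points lie at heights like those of DZNep with wider bars.

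Gnat1, the transducin alpha subunit that carries the signal to the phosphodiesterase, stood at 6013, 4357, 5063 and 3486 CPM in the DZNep controls and at 9974 and 9984 CPM in the treated retinas. The treated retinas lay close together and clear of the controls. The change was 2.11-fold (log2 1.08, SE 0.18, adjusted p 0.00379). In the UNC1999 experiment it was at 4328, 3402 and 7067 CPM in controls and at 13586, 9925 and 10730.0 CPM in treated retinas. Again every treated retina lay above every control, but the gap between the groups (7067 to 9925 CPM) was smaller than the spread of the controls (3402 to 7067 CPM). The log2 fold change of 1.21 (SE 0.26) had an adjusted p of 0.0598. In UNC0642 it was at 1554 and 1621 CPM in controls and 1571 and 2561 CPM in treated retinas, so that only 1 treated retina stood out (log2 0.38, adjusted p 0.412). In Romidepsin it was at 3844, 2861 and 5203 CPM in controls and 5558, 3602 and 2913 CPM in treated retinas, which overlapped throughout (log2 0.02, SE 0.27). In sorted rods it was at 11732 and 19545 CPM in controls and 14783 and 14549 CPM after GSK2879552, between the controls.

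Gnb1, the beta subunit, which also serves G proteins of other cells, followed Gnat1 in the DZNep experiment. Its controls ran from 1731 to 2576 CPM and its treated retinas were at 4453 and 4354 CPM, a 2.02-fold rise (log2 1.02, SE 0.13, adjusted p 0.00156). Gngt1, the rod gamma subunit that anchors the complex to the membrane, rose 1.84-fold from 342 to 506 CPM in controls to 820.4 and 729.8 CPM (log2 0.88, SE 0.14, adjusted p 0.00300). So all 3 subunits rose under DZNep, Gngt1 the least. In UNC1999 they had log2 fold changes of 1.04 and 0.92, and both had an adjusted p of 0.0611. In the other retinas the groups overlapped for both, and in Romidepsin treated replicate 3 had less Gngt1 (220.0 CPM) than any control (289.5 to 459 CPM) while the other 2 treated retinas did not. In sorted rods Gngt1 was at 1510.5 and 2394 CPM in controls and 1518 and 1405 CPM after GSK2879552 (log2 -0.42, SE 0.26, adjusted p 0.987).

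**Figure D3:**
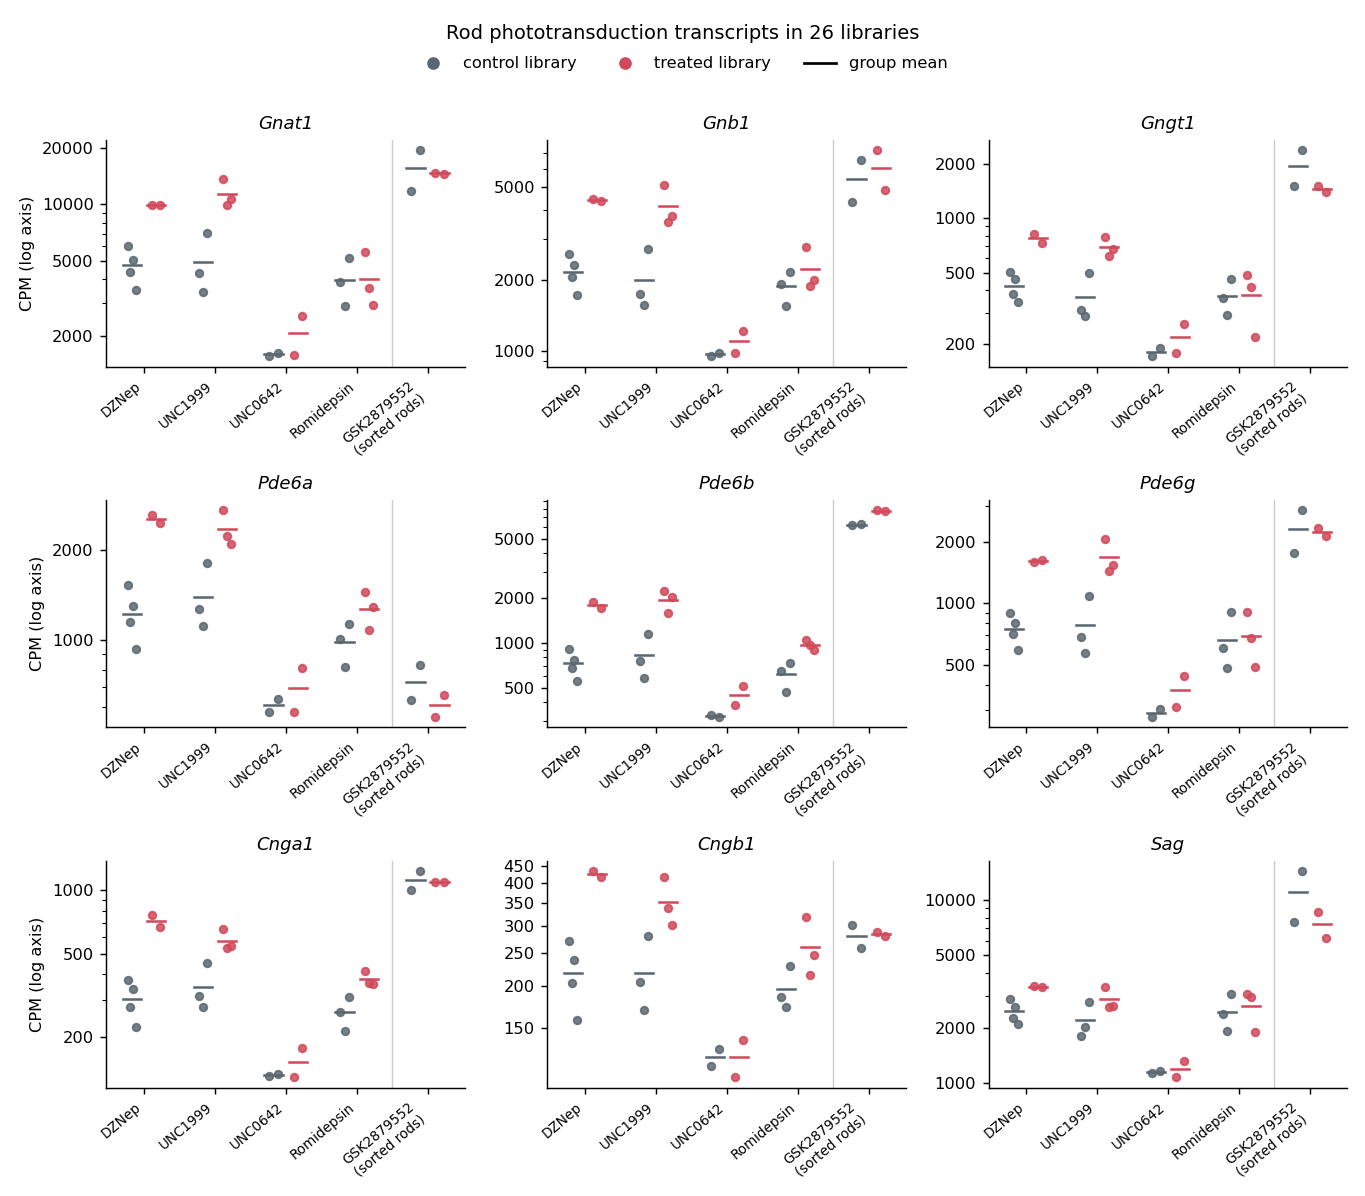
Level of each of the 9 members in all 26 libraries, in CPM on a log axis, by experiment. Each point is a library and each bar a group mean. The DZNep retinas lie above their controls in all 9 panels and the UNC1999 retinas in 8, with Sag as the exception, while the scale of sorted rods, right of the line, was set separately from that of the retinas.

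Pde6b, the catalytic beta subunit and the gene that carries the rd10 mutation, was the member with the highest log2 fold change in all 5 experiments. In DZNep it was at 909.6, 674, 769.5 and 551 CPM in controls and at 1884 and 1724 CPM in treated retinas. It rose 2.49-fold (log2 1.31, SE 0.16, adjusted p 0.00119). In UNC1999 it was at 757, 578 and 1143 CPM in controls and at 2224, 1594 and 2023 CPM in treated retinas, a log2 fold change of 1.24 (SE 0.24) that missed the threshold at an adjusted p of 0.0538. In Romidepsin it was at 645, 469 and 733 CPM in controls and 1041, 973 and 894 CPM in treated retinas (log2 0.65, SE 0.17, adjusted p 0.0894). In UNC0642 it was at 326 and 318 CPM in controls and 382 and 514 CPM in treated retinas (log2 0.48, SE 0.14, adjusted p 0.299). In sorted rods it was at 6176 and 6260.0 CPM in controls and 7779 and 7669.6 CPM after GSK2879552 (log2 0.31, SE 0.22, adjusted p 0.987). No other member had every treated library above every control in all 5 experiments. The counts cover the transcript as a whole and say nothing of whether its protein worked.

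Pde6a, the catalytic alpha subunit, had a lower log2 fold change than Pde6b in each experiment. In DZNep it was at 934 to 1528 CPM in controls and at 2618 and 2457 CPM in treated retinas, a 2.06-fold rise (adjusted p 0.00247). In UNC1999 its log2 fold change was 0.74 (SE 0.18, adjusted p 0.0737) and in Romidepsin 0.37 (SE 0.16, adjusted p 0.249). In sorted rods it was at 632 and 826 CPM in controls and 557 and 660.3 CPM after GSK2879552, with overlapping groups. Pde6g, the inhibitory gamma subunit, rose 2.14-fold in DZNep, from 594 to 897 CPM in controls to 1590.4 and 1628 CPM (log2 1.10, SE 0.13, adjusted p 0.00121). In UNC1999 its log2 fold change was 1.11 (SE 0.24, adjusted p 0.0589). In Romidepsin its treated retinas were at 905, 679 and 489 CPM and its controls at 604, 486 and 907 CPM, so that the groups covered the same range.

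Cnga1, the subunit that forms the pore of the cGMP-gated channel, was at 373, 280.2, 338 and 225 CPM in the DZNep controls and at 764 and 671 CPM in the treated retinas. It rose 2.36-fold (log2 1.24, SE 0.16, adjusted p 0.00159), next to Pde6b among the members. In UNC1999 it was at 313, 278 and 453 CPM in controls and 656, 532 and 541 CPM in treated retinas (log2 0.73, SE 0.18, adjusted p 0.0729). In Romidepsin it was at 265, 214 and 310.3 CPM in controls and 415, 363 and 359 CPM in treated retinas. Those groups did not overlap, and the log2 fold change of 0.53 (SE 0.15) had an adjusted p of 0.113. Cngb1, the modulatory subunit, rose 1.96-fold in DZNep, from 159 to 269.9 CPM to 434 and 416 CPM (adjusted p 0.00425). In sorted rods the channel was nearly level between groups, with log2 fold changes of -0.03 (95% interval -0.51 to 0.45) for Cnga1 and 0.02 (-0.42 to 0.47) for Cngb1.

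Sag, the arrestin that quenches the activated pigment, rose least of the members in DZNep and UNC1999. In UNC0642 and Romidepsin its log2 fold changes were 0.05 and 0.11. Cngb1 was lower in UNC0642, and Gnat1, Gngt1 and Pde6g were lower in Romidepsin. In DZNep it was at 2868, 2262, 2619 and 2115 CPM in controls and at 3386 and 3355 CPM in treated retinas, a 1.37-fold rise (log2 0.45, SE 0.12, adjusted p 0.0249). That call was lost without control replicate 2 (adjusted p 0.0711), treated replicate 1 (0.131) or treated replicate 2 (0.0884). It was also lost with library totals in place of TMM factors (adjusted p 0.0529) and with all 22 retinas in one fit (0.182). In UNC1999 it was at 1809.7, 2037 and 2774 CPM in controls and 3351, 2618 and 2644 CPM in treated retinas. It was the one member there whose groups overlapped (log2 0.38, SE 0.17, adjusted p 0.234). In sorted rods it was at 7588 and 14429 CPM in controls and 8606 and 6230.5 CPM after GSK2879552, a log2 fold change of -0.57 (SE 0.34, adjusted p 0.987) in which 1 control library stood far above the other 3.

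The UNC0642 controls had less of all 9 members than the controls of the Romidepsin and DZNep experiments, whose library names belong to the same series. In 1 fit of all 22 retinas, the log2 differences ran from -0.84 (Cngb1, SE 0.20, adjusted p 0.0126) to -1.55 (Gnat1, SE 0.31, adjusted p 0.00427), where 4.51% of 17274 genes were called lower. Without UNC0642 control replicate 1 none of the 9 was called, with log2 differences from -0.75 to -1.51, and without replicate 2 there were 6. The 20 other rod transcripts were lower in the same libraries, with a summed level of 5053 to 5128 CPM against 7111 to 11397 CPM. The summed microglia level was 666 to 881 CPM against 235 to 725 CPM. Their part in the difference was not tested.

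The size of the change was compared between the 4 treatments of whole retinas in that same fit, over 6 pairs of treatments. The doses and diluents differed, so that each contrast is between treatments as they were given. None of the 9 members differed in any pair at an adjusted p under 0.05 with edgeR's quasi-likelihood test. At an unadjusted p under 0.05 there were 7 members for DZNep less Romidepsin, as for 13.8% of genes, 5 for DZNep less UNC0642 (13.1% of genes), 4 for UNC1999 less Romidepsin (21.8%) and 3 for UNC1999 less UNC0642 (12%). There were 0 for DZNep less UNC1999, the 2 EZH2 inhibitors (9.45%), and for UNC0642 less Romidepsin (12.6%). At an adjusted p under 0.05, the shares of genes higher and lower were 0.162% and 0.127% for DZNep less Romidepsin, 0.00579% and 0.0174% for DZNep less UNC0642, and 2.15% and 2.96% for UNC1999 less Romidepsin. They were 0% and 0.0116% for UNC1999 less UNC0642, 0% and 0.00579% for DZNep less UNC1999, and 0.0174% and 0% for UNC0642 less Romidepsin. The lowest adjusted p was 0.0884, for Gnat1 in UNC1999 less Romidepsin (log2 difference 1.19, 95% interval 0.36 to 2.02), and the likelihood ratio test called that 1 (adjusted p 0.0439). For the 2 EZH2 inhibitors the log2 differences ran from -0.13 (Gnat1, 95% interval -0.98 to 0.73) to 0.52 (Cnga1, -0.06 to 1.09). The largest estimates against Romidepsin were for Gnat1 and Pde6g, at 1.06 and 1.05 for DZNep and 1.19 and 1.05 for UNC1999, and the smallest for DZNep was for Sag, at 0.34 (-0.24 to 0.93).

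Because a retinal level can move with the share of rods, each library was also scaled to 20 other rod transcripts, such as Nrl, Nr2e3, Prph2 and Rom1. On that scale a value of 0 means that a member moved as the other rod transcripts did. In DZNep 8 of the 9 members did not differ from them at an adjusted p under 0.05, and Sag was lower (log2 -0.53, SE 0.18, adjusted p 0.00455), where 89.1% of all genes were lower and 0.328% higher. In UNC1999 Gnat1 (log2 0.47, SE 0.15, adjusted p 0.00427) and Pde6b (0.49, SE 0.20, adjusted p 0.0181) were higher than the rod transcripts and Sag was lower (-0.40, SE 0.18, adjusted p 0.0330), where 0.418% of genes were higher and 80.1% lower. Where most genes are called, the adjustment changes a p-value little, so these adjusted p-values are not comparable with those under TMM factors. For Gnat1 in UNC1999 the unadjusted p of edgeR's quasi-likelihood test was 0.00185 on this scale and 0.00189 with TMM factors. The adjusted p was 0.0598 with TMM factors. The call on Gnat1 held without any 1 of the 6 libraries. The call on Pde6b was lost without control replicate 1 (adjusted p 0.0698), treated replicate 1 (0.0714) or treated replicate 3 (0.129). The call on Sag was lost without any 1 library other than control replicate 3, with adjusted p-values from 0.0509 to 0.128. In DZNep the call on Sag was lost without treated replicate 1 (adjusted p 0.0866), and Pde6b was called without control replicate 4 (0.0275). Pde6b was above 0 in all 5 experiments on this scale, at 0.34 in DZNep (adjusted p 0.100), 0.24 in UNC0642 (0.687), 0.24 in Romidepsin (0.337) and 0.23 in sorted rods (0.997). No member was called in those last 3 experiments, where 0.104%, 1.08% and 0% of genes were higher and 1.78%, 24.9% and 0% lower. In Romidepsin only Pde6b and Cnga1 were above 0. The lowest there were Gngt1 (-0.42, SE 0.22, adjusted p 0.136) and Gnat1 (-0.41, SE 0.17, adjusted p 0.0624). In sorted rods Gnb1 and Pde6b were above 0 and Sag was lowest (-0.62, SE 0.26, adjusted p 0.997). In UNC0642 Gnat1, Gngt1, Pde6b and Pde6g were above 0 and Cngb1 was lowest (-0.24, SE 0.23, adjusted p 0.683). Unadjusted p from edgeR's quasi-likelihood test was 0.0184 for Gnat1 in Romidepsin and 0.0394 for Sag in sorted rods.

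The ratio between 2 members within a library does not depend on any scaling. It was taken as the log2 ratio of counts per kilobase of exons and compared with an exact two-sided permutation test. With these group sizes the smallest p the designs allow is 0.133 for DZNep, 0.1 for UNC1999 and Romidepsin and 0.333 for the other 2 experiments, so that no ratio could pass 0.05. The ratio of Pde6a to Pde6b was 0.90, 0.92, 0.91 and 0.91 in the DZNep controls and 0.63 and 0.66 in the treated retinas. In UNC1999 it was 0.91, 1.10 and 0.81 in controls and 0.44, 0.63 and 0.20 in treated retinas. The treated libraries were lower than every control of their own in both, and this held in all 5 experiments. The differences were -0.27 (DZNep, exact p = 0.133), -0.51 (UNC1999, exact p = 0.1), -0.29 (UNC0642, exact p = 0.333), -0.30 (Romidepsin, exact p = 0.1) and -0.57 (sorted rods, exact p = 0.333), each at the smallest p its design allows. The mean ratio was -2.95 in sorted control rods and 0.85 to 1.07 in the control retinas.

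The ratio of Gnat1 to Sag was 3.08, 2.96, 2.96 and 2.73 in the DZNep controls and 3.57 and 3.59 in the treated retinas. In UNC1999 it was 3.27, 2.75 and 3.36 in controls and 4.03, 3.93 and 4.03 in treated retinas. Every treated library was above its controls in these 2 experiments, in UNC0642 (difference 0.29) and in sorted rods (0.47), but not in Romidepsin, where the groups overlapped (-0.09, exact p = 0.8). Pde6g to Pde6b was lower in all treated retinas of Romidepsin, at 0.91, 0.60 and 0.25 against 1.02, 1.17 and 1.42 in controls (difference -0.62, exact p = 0.1). It was also lower in both treated DZNep retinas (-0.22, exact p = 0.133). Cnga1 to Cngb1 was higher in all treated libraries of DZNep (difference 0.27) and UNC0642 (0.20) and overlapped in the others. Gnat1 to Gnb1 differed by 0.20 in UNC1999, with all treated above, and overlapped in the other 4 experiments. Gngt1 to Gnb1 was lower in both treated libraries of DZNep (difference -0.14, exact p = 0.133) and of sorted rods (-0.54, exact p = 0.333). It overlapped in the others. In DZNep treated replicate 1 and control replicate 2 were both at -2.60.

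**Figure D4:**
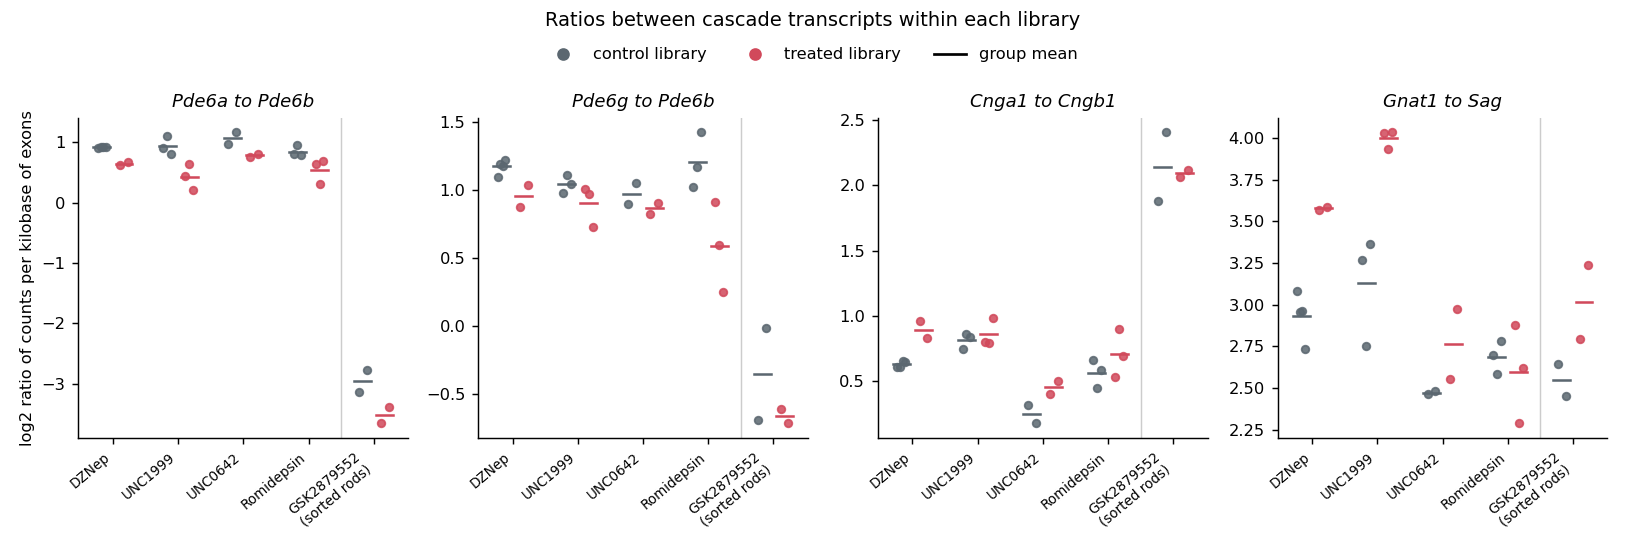
Log2 ratios of counts per kilobase of exons between members within each library, by experiment. Each point is a library and each bar a group mean. The ratio of Pde6a to Pde6b lies lower in the treated libraries of all 5 experiments, and its sorted rods lie near -3 while the retinas lie near 1.

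The other genes of the rod pathway were taken as 11 genes of recovery and calcium feedback, among them the pigment kinase Grk1, the GTPase-activating protein Rgs9, the guanylate cyclases Gucy2e and Gucy2f with their activating proteins Guca1a and Guca1b, and the exchanger Slc24a1. All 11 rose in DZNep, with a median log2 fold change of 0.89. They ran from 0.64 for Grk1 (SE 0.12, adjusted p 0.00740) to 1.50 for Guca1b (SE 0.16, adjusted p 0.000767). In UNC1999 none of the 11 was called with edgeR's quasi-likelihood test, all 11 had an unadjusted p under 0.05, the median was 0.88, and the likelihood ratio test called 11 and DESeq2 10. In UNC0642, Romidepsin and sorted rods none was called with the quasi-likelihood test, with medians of 0.16, 0.38 and 0.09, while the likelihood ratio test and DESeq2 each called 4 higher in Romidepsin and 0 in the other 2. Guca1b was the highest of them in UNC0642 (0.55) and Romidepsin (1.07), and recoverin (Rcvrn) the lowest in Romidepsin (-0.19) and in sorted rods (-0.74). Of the 20 other rod transcripts 19 rose in DZNep (median 1.03, with Samd7 lowest at 0.34) and 1 was called in UNC1999 (median 0.86), where the likelihood ratio test called 17 and DESeq2 16. In Romidepsin 1 was called higher (median 0.46), and the likelihood ratio test and DESeq2 each called 7. There 12 had an unadjusted p under 0.05, as 19.4% of genes did. None was called by any of these tests in UNC0642 (median 0.27) or sorted rods (0.09).

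The cone genes that correspond to the members gave other values. In DZNep none of the 10 cone cascade genes rose and 3 fell, with a median of -0.15. Gnb3, the cone transducin beta subunit that bipolar cells also use, fell by 0.54 on the log2 scale (adjusted p 0.000751), the cone phosphodiesterase Pde6c fell by 0.61 (adjusted p 0.00695) and cone arrestin Arr3 fell by 0.84 (adjusted p 0.00129). Gnat2, the cone transducin alpha subunit, was at 205 CPM (SD 12.6, n = 4) in controls and 206 CPM (SD 8.55, n = 2) in treated retinas, while Gnat1 rose 2.11-fold. Cnga3 and Cngb3, the cone channel subunits, had log2 fold changes of 0.02 and -0.09, and Pde6h and Gngt2 of -0.15 and -0.17. In UNC1999 none was called with edgeR's quasi-likelihood test (median 0.30, from -0.54 for Gnb3 to 0.69 for the short-wave opsin Opn1sw), 2 had an unadjusted p under 0.05, the likelihood ratio test called Gnb3 lower, and DESeq2 called Gnb3 lower and Pde6c higher. In UNC0642 none was called with that test, 8 had an unadjusted p under 0.05 and the median was -0.34, and the likelihood ratio test and DESeq2 each called 3 lower and 1, Pde6c, higher. In Romidepsin none was called with that test, 8 had an unadjusted p under 0.05 and the median was -0.77. There the likelihood ratio test called 6 lower (Gnat2, Pde6c, Cnga3, Cngb3, Arr3 and the opsin Opn1mw) and DESeq2 5, without Arr3. Of the 10 genes 9 were below 0, while the members ran from 0.01 to 0.65, and Gnat1, Gngt1, Pde6g and Sag among them turned sign on leaving out 1 library.

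In the sorted rods the cone cascade genes were below 0 for 10 of 10, with a median of -0.95, and 8 had an unadjusted p under 0.05, where 4.91% of all genes did and the members counted 0. None passed after adjustment with edgeR's quasi-likelihood test, while the likelihood ratio test and DESeq2 each called 2 lower, Gnb3 and Pde6h. Their summed level was 3099 to 4659 CPM in controls and 1699 to 2263 CPM after GSK2879552. Gnb3 was lowest in adjusted p (log2 -1.20, SE 0.21, adjusted p 0.360). The summed Müller glia level in the same libraries was 342 to 535 CPM in controls and 433 to 505 CPM after treatment, and that of microglia 63.2 to 79.4 CPM and 67.6 to 68.9 CPM. For bipolar cell genes it was 1019 to 1290 CPM in controls and 907 to 953 CPM after treatment. Their part in the members' levels in sorted rods was not tested.

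**Figure D5:**
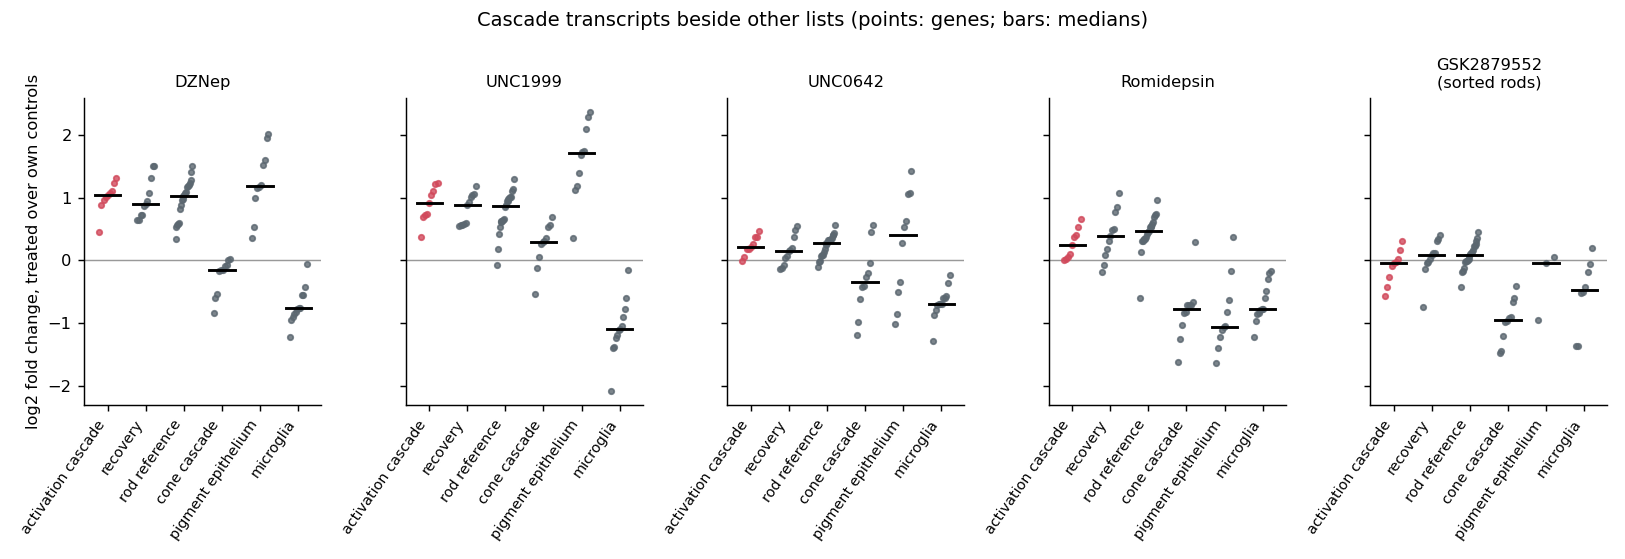
Log2 fold change of each gene, treated over its own controls, for the 9 members and 5 other lists, in the 5 experiments. Each point is a gene that was tested and each bar the median of the list. The members, the recovery genes and the other rod transcripts lie together in each experiment, at medians near 1 in DZNep and UNC1999, and the median of the cone cascade is below theirs in each experiment, with some cone genes inside the range of the members in the experiments other than DZNep.

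The genes whose level followed the members most closely over the 22 retinas, each centred on the mean of its experiment, were Fam57b (Pearson r = 0.994), Rdh12 (0.993), Rom1 (0.988), Reep6 (0.985), Vopp1 (0.985), Nrl (0.983), Ankrd33 (0.983) and Nt5e (0.980), of 10832 genes ranked. These values are descriptions over libraries that share their depth and cell makeup within a library. Of the 8, 4 are among the 20 rod transcripts used above for scaling. Among the members themselves, the level of 1 against the mean of the other 8 gave r from 0.873 for Sag to 0.983 for Gnb1.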

How the data were processed

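PolyA RNA of 22 retinas and 4 preparations of sorted rods was analysed, all in 1 table. The authors trimmed their reads (BBDuk), used HISAT2 2.2.1 to place them on NCBIM37 and tallied them over Ensembl genes by HTSeq 0.11.2, versions being those of the submitters' processing notes. Whether strand was used in counting is not given in the sources used here. The deposited values are raw counts, checked to be whole numbers. Libraries were grouped by their titles. In the DZNep and UNC1999 experiments the number that ends the genotype or treatment label goes up from library to library, and this was not taken as a difference. For the sorted rods the methods name a SMART-Seq kit, whereas the label names the stranded kit of the retinas. Symbols and exons came from the NCBIM37 annotation for 37205 of 37991 genes, and no row was left out of the library sizes.

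Each comparison was fitted on its own libraries in edgeR 4.0.16 (R 4.3.3) with filterByExpr, TMM factors, the quasi-likelihood F test in place of the authors' likelihood ratio test, and Benjamini-Hochberg adjustment over all genes tested. All 9 members passed the filter in every comparison, and CPM was computed on TMM-scaled library sizes. Differences between treatments were contrasts in 1 fit of the 22 retinas. The labels call replicates biological, and nothing says which animals they came from, so that p-values measure the spread between these libraries. Relative to rod transcripts, the p-values of the retinas rest on a spread shared across genes. With library totals in place of TMM factors the median log2 fold change over all genes was -0.12 in DZNep and -0.11 in UNC1999, and the calls were 1202 higher and 3828 lower in DZNep (2133 and 1601 with TMM) and 239 higher and 626 lower in UNC1999 (79 and 16 with TMM).

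All 9 members are named in every comparison. Of each list the gene with the highest and the one with the lowest log2 fold change, and the counterparts of the members in cones, may be named, as may the 8 genes most like the members in pattern (log2 CPM with a prior count of 2, genes of at least 10 CPM on average). Opn1sw, the recovery genes introduced by their role and the rod transcripts given as examples were named after their values were known. The members, lists and tests were chosen with earlier results of these data known. Other tools were DESeq2 1.42.0, Python 3.11.15, scipy 1.17.1 and matplotlib 3.10.9. On simulated counts with 200 changed genes in each comparison, the test found 199 in DZNep (with 18 others called), 197 in UNC1999 (13), 188 in UNC0642 (30), 180 in Romidepsin (11) and 110 in sorted rods (4). The planted log2 changes were all at least 1 in size, with noise drawn from the fitted spread independently for each library. Every member's change in UNC0642, Romidepsin and sorted rods was smaller than that. These counts therefore do not give the chance of calling such changes. In UNC1999 Gnat1, Gnb1, Pde6b and Pde6g had log2 fold changes of 1.04 to 1.24 and none was called with the quasi-likelihood test. The noise was drawn independently for each gene too, without any variation shared by rod transcripts. The simulated count of UNC1999 therefore does not give the chance of calling the members there either. Promoter windows came from RefSeq (GRCm38.p6), and those of Gnat1, Pde6a and Pde6g were not used here. The alternatives were other tests, scalings, filters, a fold threshold, a block for the replicate number, 1 fit of all retinas, another reference list and leaving out each library.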

Additional observations from a re-analysis of the deposited data

Results flagged for a closer look

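The log2 ratio of Gngt1 to Gnb1 in the DZNep controls had 1 library away from the other 3. It was -2.51, -2.60, -2.51 and -2.50, and the gap from control replicate 2 to its nearest neighbour was 0.942 of the group's whole range, above the critical value of Dixon's test for 4 samples. Of 15 values tested in that group, 1 was marked in this way, and chance marks about 1 in 20. The treated retinas were at -2.60 and -2.74, so that the library set apart is the control nearest to them.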

How the results depend on the processing

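The number of members called in UNC1999, 0 with TMM and the quasi-likelihood test, was 8 by the likelihood ratio test, by DESeq2, with no filter and with all 22 retinas in one fit, and 5 with library totals only, while RLE factors, at least 10 counts in every library and a log2 fold change above 1 left it at 0. In UNC0642 it was 1 by DESeq2 and 3 with no filter, in Romidepsin 2 by the likelihood ratio test, 2 by DESeq2, 1 with no filter and 1 with all 22 retinas in one fit, and in sorted rods 0 throughout. For UNC1999 less Romidepsin the likelihood ratio test called 1. DZNep kept 7 to 9 members, except for 6 with a log2 fold change above 1. Over all genes 839 were higher and 802 lower by the likelihood ratio test in UNC1999 and 657 and 528 in Romidepsin, DESeq2 788 and 671 and 596 and 478, and no filter 533 and 491 and 410 and 260. In UNC0642 these gave 98 and 47, 100 and 52, and 443 and 609, and in sorted rods 46 and 25, 27 and 16, and 143 and 43. With all 22 retinas in one fit there were 963 and 370 in DZNep, 717 and 728 in UNC1999 and 1540 and 1447 in Romidepsin. Counts of the other lists by the likelihood ratio test and DESeq2, given beside some of the lists, were added after the data were seen. The causes of these shifts were not tested.

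Whether replicate numbers pair the libraries is not given in the sources used here, and so few libraries per group cannot settle it. The deviations of same-numbered libraries from their group means correlated from -0.279 to 0.230 across the 5 experiments, and in UNC0642, with 2 pairs, at 0.213. The block gave 919 genes higher and 496 lower in DZNep, 20 and 10 in UNC1999 and 244 and 345 in UNC0642, where 0 were called without it. With the replicate number as a block 7 members were called in DZNep (all but Gnat1 and Sag), 0 in UNC1999, 1 in UNC0642 (Pde6b), 0 in Romidepsin and 0 in sorted rods, and 2 log2 fold changes near 0 turned sign, Gngt1 in Romidepsin (-0.029) and Pde6g in sorted rods (0.0018).

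Leaving out 1 library at a time gave 8 to 9 called members in DZNep, 0 to 9 in UNC1999 and 0 in the other 3 experiments. Where a group was left with 1 library, that library was assumed to vary like the others. Relative to rod transcripts it gave 0 to 2 in DZNep, 1 to 5 in UNC1999, 0 to 3 in UNC0642, 0 to 1 in Romidepsin and 0 in sorted rods, and for the UNC0642 controls 0 to 6. Log2 fold changes near 0 turned sign: in UNC0642 Gnat1 ran from -0.015 to 0.69, Gngt1 from -0.014 to 0.51, Pde6a from -0.071 to 0.41, Cnga1 from -0.039 to 0.42, Cngb1 from -0.20 to 0.16 and Sag from -0.10 to 0.19. In Romidepsin Gnat1 ran from -0.29 to 0.26, Gngt1 from -0.22 to 0.29, Pde6g from -0.19 to 0.34 and Sag from -0.037 to 0.30. In sorted rods Gnat1 ran from -0.42 to 0.32, Gnb1 from -0.15 to 0.49, Pde6g from -0.35 to 0.35, Cnga1 from -0.18 to 0.12 and Cngb1 from -0.087 to 0.14.

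The limits are the 2 libraries in several groups, the exact tests that cannot reach 0.05, levels by length that depend on which exons are counted (in control retinas the medians by coding transcript were 297 for Gngt1, 235 for Pde6b, 732 for Pde6g and 106 for Cnga1), and the shallower libraries of sorted rods.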

Other observations

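The remaining lists give the setting of the members' changes in each experiment. Of 10 Müller glia markers, 8 fell in DZNep, the median being -0.45 on the log2 scale and Apoe lowest at -0.79, and none was called in the other experiments with edgeR's quasi-likelihood test, with medians of -0.44 in UNC1999, -0.19 in UNC0642, -0.44 in Romidepsin and 0.42 in sorted rods. Of 10 bipolar cell genes, 6 fell and 1 rose in DZNep (median -0.21, with Grm6, the receptor of ON bipolar cells, lowest at -0.57 and Otx2 highest at 0.27), and 1, Grm6, fell in Romidepsin (log2 -0.98, edgeR, adjusted p 0.0338). In sorted rods all 10 were below 0 (median -0.34), and none was called. Of 10 amacrine and ganglion cell genes, 2 fell in DZNep (median -0.22) and none was called elsewhere, with medians of 0.02 in UNC1999, 0.07 in UNC0642 and -0.31 in Romidepsin. By the likelihood ratio test, 5 Müller glia markers were lower in UNC1999, 3 lower and 1 higher in UNC0642 and 4 lower in Romidepsin, as were 5 bipolar cell genes and 1 amacrine or ganglion cell gene in Romidepsin.

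The pigment epithelium list lay above 0 in DZNep (median 1.18) and UNC1999 (1.70) and below 0 in Romidepsin (-1.06, none called by that test and 6 lower by the likelihood ratio test and by DESeq2, 50.9 to 68.3 CPM summed against 91.6 to 111 CPM in controls). The members' medians there were 1.05, 0.92 and 0.24, and in Romidepsin 4 members (Gnat1, Gngt1, Pde6g and Sag) turned sign on leaving out 1 library. Its highest gene in UNC1999 was Rpe65, the isomerase of the visual cycle, at 7.39 CPM (SD 4.11, n = 3) in controls and 38.1 CPM (SD 6.51, n = 3) in treated retinas, a rise with an adjusted p of 0.0345 from edgeR. In DZNep its highest gene was Rgr, at 18.1 CPM (SD 7.99, n = 4) in controls and 73.4 CPM (SD 9.63, n = 2) after treatment, a rise with an adjusted p of 0.00273. The microglia list had medians of -0.76 in DZNep, -1.10 in UNC1999, -0.70 in UNC0642, -0.77 in Romidepsin and -0.47 in sorted rods, where 8 of its 12 genes were tested. With edgeR's quasi-likelihood test 1 was called lower in DZNep and 0 elsewhere. The likelihood ratio test called 6 lower in DZNep, 11 in UNC1999, 3 in UNC0642 and 6 in Romidepsin. DESeq2 called 3, 11, 3 and 6 in the same order, and both called 0 in sorted rods.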
